A study of Mus musculus with 4 samples.

Results

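The 36 genes described here make cholesterol and fatty acids, sense sterols, or carry sterols in and out of the cell. They were picked by their known roles and found by gene symbol, with earlier results of these data known, and all 36 are among the 55421 genes of the deposited count table. RNA was sequenced from 4 libraries of spermatogonia, the mitotic germ cells that include the stem cells of the testis, cultured from CD1 mice. According to the study's methods, such cultures start from the testes of young pups and grow on feeder layers of mouse embryonic fibroblasts. The 2 NRRA libraries came from cultures given nutrient restriction medium, in which balanced salt solution replaces most of the complete medium and thereby dilutes its amino acids, growth factors, serum and albumin, together with retinoic acid (RA). In the study's methods cultures were kept in the medium that starts meiosis for 2 days. The 2 Veh libraries came from cultures in complete medium with vehicle. The complete medium held GDNF and bFGF, no genetic change is named for either group, and the question of the comparison was whether the response to NRRA, studied mostly in cultures of a hybrid background, also occurs in CD1 cells. The study describes the replicates of its sequencing as independent and biological, but the labels do not tie the libraries to separate cultures or animals, and the p-values measure the spread between these libraries.

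Cholesterol is built from acetyl-CoA through mevalonate and squalene, and its last steps reshape the 4-ring sterol lanosterol. When membranes hold little sterol, SCAP escorts the transcription factors SREBP1 and SREBP2 out of the endoplasmic reticulum for activation, and INSIG proteins hold the complex back when sterol is plentiful. Oxidised sterols instead activate the liver X receptors (LXR), nuclear receptors that pair with retinoid X receptors (RXR) and switch on genes of sterol efflux. Both systems also reach fatty acid synthesis, since SREBP1 is itself an LXR target and drives fatty acid enzymes. Germ cells of the testis are known for membranes rich in unusual sterol intermediates and in long polyunsaturated fatty acids.

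Total counts ranged from 28022265 to 31604769 per library, so that the limit of 3 counts lay between 0.0921 and 0.111 CPM (counts scaled to a common library size). Stra8, the RA-induced gene used here to check the labels, was counted 261 and 300 times with Veh and 60702 and 55775 times with NRRA. Of 20232 genes tested with edgeR's quasi-likelihood test, 56.4% had an adjusted p under 0.05, 27.9% higher and 28.4% lower in NRRA. Scaling by library size alone moved this split to 6962 higher and 4593 lower genes, or 60.3% of the calls higher against 49.6% with the TMM scaling used throughout. Of 25 fibroblast feeder markers, 20 were lower and 3 higher, and their summed share of all counts was 1.25% and 1.24% in Veh against 1.03% and 1.00% in NRRA. The largest changes among them were 0.98 for Pdgfra and 0.61 for Col3a1 upward, and -1.52 for Timp1 and -2.11 for Col6a3 downward (log2). Of 12 germ cell markers 5 were higher and 6 lower, with summed shares of 0.233% and 0.238% in Veh and 0.278% and 0.279% in NRRA. Sall4 (0.84) and Tex15 (0.66) had the highest and Piwil4 (-0.49) and Nanos3 (-5.28) the lowest log2 fold changes of that list. The part of these shifts in the results that follow was not tested, and in a mixed culture fewer cells of a type and less RNA per cell cannot be told apart. Markers of other testis cells were scarce. The 7 Leydig cell markers summed to between 0.000732% and 0.000987% of counts, nearly all of it Star (0.31, adjusted p 0.0317 with edgeR), whose call was lost in DESeq2 and when any 1 library was left out. The 7 Sertoli cell markers summed to between 0.000763% and 0.000977%, with 1 of them at 0 in every library. Of the 3 tested, edgeR and DESeq2 called 0 (1, Wt1, had an unadjusted p under 0.05 in edgeR), and 1 was called lower without Veh library 1 or NRRA library 2. The 8 macrophage markers summed to between 0.00408% and 0.00489%, and 2 of the 6 tested were lower, among them Cd68 (-0.86).

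All 36 genes were expressed and tested. NRRA raised 20 of them (55.6%, against 27.9% of all genes tested) and lowered 9 (25%, against 28.4%), and 7 did not pass the test. None of the 29 called genes reached a change of 2-fold in the fit, the nearest being Elovl6. Because highly expressed genes are called more often, the same counts were taken where the log2 CPM averaged 3 or more. There, 17 of 31 (54.8%) were higher and 8 (25.8%) lower, against 34.4% and 37% of all 11326 such genes. The size of change was not unusual. The median absolute log2 fold change of the 36 genes was 0.30 and that of all tested genes was 0.33, while the median standard error (SE) was 0.050 against 0.10. In all 36 genes both NRRA libraries lay on one side of both Veh libraries, which was so for 76.7% of all genes tested. Replicates were close, with a median difference between libraries of one group of 0.047 (Veh) and 0.040 (NRRA) on the log2 scale over the 36 genes.

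**Figure D1:**
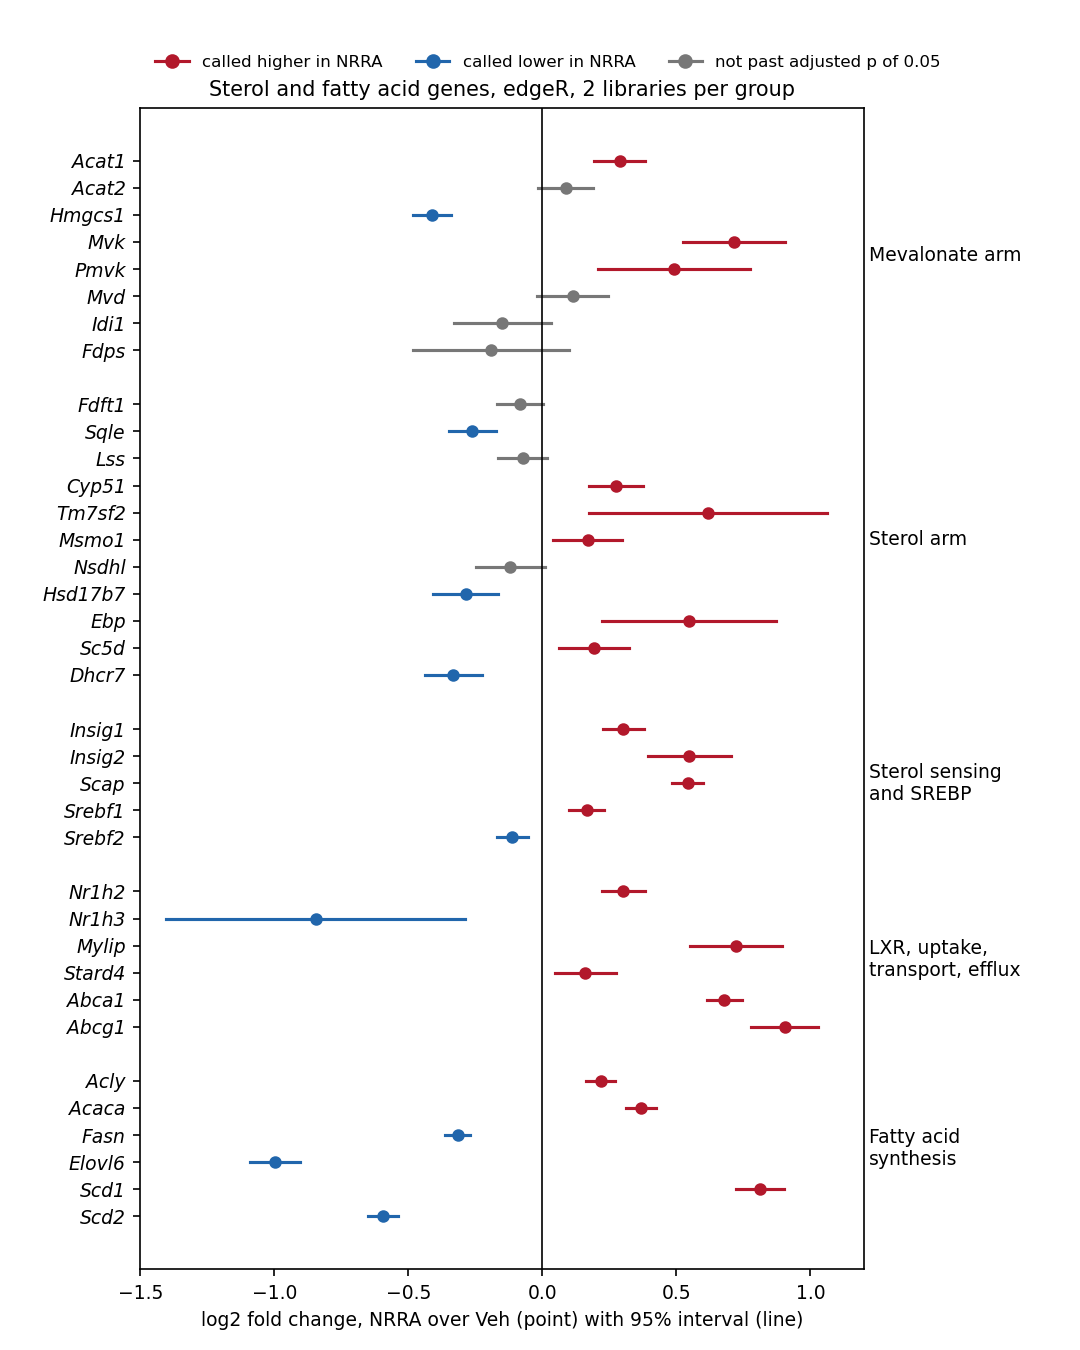
Log2 fold change of each of the 36 genes, NRRA over Veh, from edgeR with 2 libraries per group (x axis; points, estimates; lines, 95% intervals), grouped by role on the y axis. Red marks 20 genes called higher, blue 9 called lower and grey 7 not past an adjusted p of 0.05; points of the sterol sensing and LXR groups lie mostly to the right of 0, those of the enzyme groups on both sides.

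Differences between roles were not tested. Of the 19 cholesterol synthesis enzymes, with the mitochondrial thiolase gene Acat1 counted in, 8 rose, 4 fell and 7 did not pass. Acat1 was among the 8, and the median log2 fold change of the 19 was 0.086. DESeq2 called 3 of these enzymes higher and 4 lower, and without NRRA library 1 edgeR called 5 higher and 4 lower, so the balance of directions depended on the test and on that library. Of the 5 sensing and SREBP genes 4 rose and 1 fell, with a median of 0.30. Of the 6 genes of LXR, uptake, transport and efflux 5 rose and 1 fell, with a median of 0.49. The 6 fatty acid synthesis genes split evenly, with 3 higher and 3 lower (median -0.049, or 0.041 with library size only). Of all genes tested 27.9% were higher and 28.4% lower. The shares were 42.1% and 21.1% for the 19 enzymes, and 80% and 20% for the sensing and SREBP genes. They were 83.3% and 16.7% for the LXR and transport group, and 50% each for the fatty acid genes. The median of all tested genes was 0.00029. These medians are descriptions without a test. Summed over genes, the LXR and transport group went from 303 and 311 CPM in the Veh libraries to 445 and 444 CPM in the NRRA libraries, and the sensing group from 835 and 817 to 951 and 937 CPM. The 19 enzymes together held 844 and 862 CPM in Veh and 818 and 804 CPM in NRRA, and the fatty acid genes 1980.1 and 1968 CPM against 1795 and 1839.5 CPM. The first 2 sums were thus higher in both NRRA libraries, and the last 2 lower, but as a share of unscaled counts the 19 enzymes overlapped (0.0817% and 0.0835% in Veh, 0.0843% and 0.0829% in NRRA).

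In the mevalonate arm, which leads from acetyl-CoA to farnesyl pyrophosphate, Hmgcs1 and both kinase genes moved in opposite directions. Hmgcs1, which makes HMG-CoA and is a classical SREBP2 target, had 170.2 and 179.9 CPM in Veh and 133 and 130.3 CPM in NRRA. Both NRRA libraries lay below both Veh libraries, and the log2 fold change was -0.41 ± 0.034 (SE; adjusted p 9.41e-11). Mvk, mevalonate kinase, had 10.7 and 11.2 CPM in Veh and 17.9 and 18.1 CPM in NRRA, an increase of 0.72 ± 0.092 (adjusted p 2.2e-07) and the largest among the 19 enzymes. Pmvk, the kinase of the next step, rose from 137 and 151 counts to 225 and 221 counts (0.49 ± 0.14, adjusted p 0.00356), but DESeq2 gave an adjusted p of 0.0658. Acat1, a mitochondrial acetoacetyl-CoA thiolase, rose by 0.29 ± 0.047 (adjusted p 7.67e-06).

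The other 4 genes of this arm did not pass the test, and their 95% intervals bound the change. The cytosolic thiolase Acat2 stood at 0.086 (-0.018 to 0.19) and the decarboxylase Mvd at 0.11 (-0.021 to 0.25), although both passed when libraries were scaled by size alone (0.18 and 0.20). The isomerase Idi1 stood at -0.15 (-0.33 to 0.031) and Fdps, which makes farnesyl pyrophosphate, at -0.19 (-0.48 to 0.098). Some of these values are uncertain by sequence. Of the longest Acat2 transcript 65.6% is near identical to other genes, chiefly Acat3 and Tcp1, and the share is 22.6% for Idi1 and 9.69% for Fdps. In the other roles, near-identical shares of 7.11% for Msmo1 and 7.01% for Insig1 are the smallest above 5%. Fdps also shares 26.7% of its exonic bases with another gene on the same strand. For Hmgcs1 12.1% and for Idi1 9.21% of the exonic bases overlap a gene on the opposite strand, which matters if counting ignored strand.

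The sterol arm, from squalene synthesis to the last reductions, had 5 of 11 genes higher, 3 lower and 3 not past the test. The higher share was 45.5%, against 27.9% of all genes tested, and the lower share 27.3%, against 28.4%. The median was -0.074 (0.016 with library size only). DESeq2 called 1 higher and 3 lower, and edgeR called 2 higher and 3 lower without NRRA library 1 and 3 of each without Veh library 2. The 3 genes called lower were Sqle, Dhcr7 and Hsd17b7. Sqle, squalene epoxidase and a rate-controlling step after mevalonate, had 84.8 and 90.3 CPM in Veh against 73.5 and 72.7 CPM in NRRA, so that the groups did not overlap (-0.26 ± 0.043, adjusted p 1.03e-05). Dhcr7, which reduces 7-dehydrocholesterol to cholesterol, had 58.0 and 62.4 CPM against 49.0 and 46.7 CPM (-0.33 ± 0.052, adjusted p 5.22e-06). Hsd17b7, a ketosteroid reductase that works with the demethylation complex, fell by 0.29 ± 0.059 on the log2 scale (adjusted p 0.000164). Between them in the pathway, Cyp51, the lanosterol demethylase, rose from 55.7 and 53.5 CPM to 68.2 and 63.9 CPM (0.28 ± 0.049, adjusted p 3.06e-05). These 4 genes kept their calls in DESeq2 and with any 1 library left out.

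The other 4 genes called higher in the sterol arm rested on less. Tm7sf2, a sterol reductase, went from 54 counts in each Veh library to 99 and 84 with NRRA (0.62 ± 0.22, adjusted p 0.0168). It lost its call without Veh library 2 (0.55, adjusted p 0.0768), without NRRA library 1 (0.56, adjusted p 0.0915) and in DESeq2, and 12.1% of its exonic bases are shared with a gene on the same strand. Ebp, a sterol isomerase, went from 104 and 142 counts to 224 and 172 (0.55 ± 0.16, adjusted p 0.00425), and was not called without Veh library 1 (0.40, adjusted p 0.0574) or NRRA library 1 (0.41, adjusted p 0.0688). Msmo1, the methyl sterol oxidase, stood at 0.17 ± 0.063 (adjusted p 0.0245), with adjusted p 0.153 without Veh library 2 and 0.168 without NRRA library 2. Sc5d, a sterol desaturase, stood at 0.19 ± 0.063 (adjusted p 0.0108), with adjusted p 0.127 without NRRA library 1. DESeq2 called none of these 4 genes, with adjusted p from 0.0689 for Ebp to 0.172 for Tm7sf2. The squalene synthase gene Fdft1 (-0.083, 95% interval -0.17 to 0.0026), the lanosterol synthase gene Lss (-0.074, -0.16 to 0.017) and Nsdhl (-0.12, -0.25 to 0.0089), a dehydrogenase of the demethylation complex, did not pass. With library size only, Fdft1 and Lss stood just above 0, at 0.0069 and 0.016. Fdft1 has 33.8% of its longest transcript near identical to a pseudogene and overlaps a gene on the opposite strand over 18.3% of its exonic bases.

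Among the genes that sense sterol and carry SREBP, the transcripts of the escort and of both retention proteins rose together. Scap had 203 and 201 CPM in Veh and 297 and 292 CPM in NRRA, a rise of 0.54 ± 0.028 (adjusted p 5.61e-15). Insig2 had 17.7 and 17.2 CPM against 25.2 and 25.7 CPM (0.55 ± 0.075, adjusted p 6.48e-07). Insig1, which unlike Insig2 is a strong SREBP target, had 104 and 100.9 CPM against 127 and 126 CPM (0.30 ± 0.036, adjusted p 6.81e-08). In all 3 genes the groups were far apart relative to the gap between replicates. The count ratio of Insig1 to Insig2 was 5.90 and 5.88 in Veh and 5.03 and 4.90 in NRRA, lower in both NRRA libraries. For Scap, 13.2% of the exonic bases overlap a gene on the opposite strand.

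The SREBP genes themselves moved little and in opposite directions. Srebf1, which encodes the fatty acid oriented SREBP1, had 161 and 159 CPM in Veh and 179 and 179.6 CPM in NRRA (0.17 ± 0.031, adjusted p 5.69e-05). Srebf2, which encodes the cholesterol oriented SREBP2, had 349 and 339 CPM against 324 and 313 CPM (-0.11 ± 0.027, adjusted p 0.00108). The fall of Srebf2 depended on scaling, since with library size only it was -0.022 with an adjusted p of 0.520. The count ratio of Srebf1 to Srebf2, which scaling does not change, went from 0.461 and 0.469 in Veh to 0.553 and 0.575 in NRRA. Activation of SREBP is a cleavage of the protein, which transcript counts do not show.

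Promoter windows were read for the letters that SREBP is known to bind, because the known targets Hmgcs1 and Insig1 moved in opposite directions. Of the 36 genes 28 had a window in the RefSeq promoter table (GRCm38.p6, 250 bases before to 50 after each start site, 37 windows in all). The SREBP letters TCACNCCAC, searched on both strands, stood in 1.24% of all 32851 windows and in 1 of the 28 genes, Hmgcs1. With the last letter left free, TCACNCCAN, they stood in 4.35% of all windows and in 3 of the 28 genes, Hmgcs1, Srebf2 and Msmo1. The window of Insig1 held neither form. The looser form was chosen after the fold changes and these windows had been seen, and it includes the stricter one. The call of Msmo1 was lost in DESeq2 (adjusted p 0.165), and that of Srebf2 with library size only (-0.022, edgeR adjusted p 0.520). The 3 matches are shown on the gene's strand, with the matched letters in capitals. They belong to genes called in both directions: Hmgcs1 and Srebf2 lower, and Msmo1 higher.
Hmgcs1: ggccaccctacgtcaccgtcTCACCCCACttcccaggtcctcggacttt
Srebf2: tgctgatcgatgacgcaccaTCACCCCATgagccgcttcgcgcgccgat
Msmo1: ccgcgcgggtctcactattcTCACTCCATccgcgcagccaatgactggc
The first lies at chr13:119690194-119690242 (plus strand, match 137 bases before the start site), the second at chr15:82147087-82147135 (plus strand, 162 bases before) and the third at chr8:64733727-64733775 (minus strand, 177 bases before). CCAAT, the letters of the NF-Y partner of SREBP, stood in the windows of 21 of the 28 genes (75.0%), against 37.4% of all windows, and GGGCGG, the letters of Sp1, in 22 (78.6%), against 35.7%. Several of the 28 genes have more than 1 window and widely expressed genes often hold these short letters, so the shares are descriptions, and a match does not show binding.

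The genes of sterol efflux and uptake control had the highest median of the 5 roles. Abca1, the transporter that loads cholesterol onto apolipoproteins, had 134 and 139 CPM in Veh and 221 and 216 CPM in NRRA, a rise of 0.68 ± 0.032 or 1.601-fold (adjusted p 7.19e-16). Abcg1, which exports sterol to lipoprotein particles, had 25.5 and 24.5 CPM against 47.3 and 46.1 CPM, a rise of 0.90 ± 0.061 or 1.87-fold (adjusted p 1.28e-12). Mylip, an LXR-induced ubiquitin ligase that sends lipoprotein receptors for degradation, had 13.02 and 13.9 CPM against 22.0 and 22.5 CPM, a rise of 0.72 ± 0.083 or 1.65-fold (adjusted p 3.46e-08). All 3 genes are known LXR targets, and for each the lowest NRRA library stood well above the highest Veh library. Of 11 further partners and targets of LXR, 3 were higher and 3 lower (median -0.041). Apoe (0.033), Lpcat3 (0.069), Pltp (-0.13), Smpdl3a (-0.13) and Arl4c (-0.041), named after their values were seen, were not called. Stard4, a cytosolic sterol carrier known as an SREBP2 target, changed least of the 6 genes of this role. It went from 40.1 and 42.9 CPM to 46.8 and 45.9 CPM (0.16 ± 0.056, edgeR adjusted p 0.0164). Its call was lost in DESeq2 (adjusted p 0.120), without Veh library 1 (0.11, adjusted p 0.147) and without NRRA library 1 (0.15, adjusted p 0.0890).

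The receptors split. Nr1h2, which encodes the widely expressed LXR beta, had 87.7 and 88.6 CPM in Veh and 106 and 112 CPM in NRRA (0.30 ± 0.039, adjusted p 2.83e-07). Nr1h3, which encodes LXR alpha, the form of liver and macrophages, was scarce, at 53 and 70 counts with Veh, then 34 and 41 with NRRA (-0.85 ± 0.27, adjusted p 0.0093). Its call was lost in DESeq2 (adjusted p 0.123), without Veh library 2 (-0.70, adjusted p 0.0801) and without NRRA library 1 (-0.66, adjusted p 0.0911). The count ratio of Nr1h2 to Nr1h3 was 44.9 and 37.7 in Veh and 101 and 82.0 in NRRA, and per kb of exonic length Nr1h2 stood at 26.2 and 26.4 CPM against 0.777 and 0.935 CPM for Nr1h3 in Veh, and at 31.6 and 33.3 against 0.415 and 0.542 in NRRA. Nr1h2 was thus the more abundant receptor transcript in every library. The 8 macrophage markers summed to 45.6 and 50.4 CPM in Veh and 40.8 and 39.6 CPM in NRRA. Of the 6 tested, Cd68 (-0.86) and Mrc1 (-2.27) were lower, and the median was -0.41. The 4 not called were Csf1r (-0.14), Lyz2 (-0.021), Adgre1 (-0.39) and Ptprc (-0.44). All but Cd68 are named after their values were seen. The part of these cells in the change of Nr1h3 was not tested.

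LXR with its RXR partner binds paired half-sites, and a stretch with such letters is known before the start sites of Abca1 and Srebf1. The letters GGTTACTNNCGG were set from such windows after they and the fold changes had been seen, so that their presence in these genes is no finding. They stood on either strand in 9 of the 32851 windows (0.0274%), among them 1 window each of Abca1, Srebf1 and Fasn. The 3 genes did not move alike: Abca1 and Srebf1 rose and Fasn fell. Counts cover whole genes, so the rise of Srebf1 is not tied to the start site near its matches. The 4 matches are shown on the gene's strand, where the letters read in reverse complement and stand in capitals.
Abca1: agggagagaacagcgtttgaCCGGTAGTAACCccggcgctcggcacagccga
Srebf1 upstream match: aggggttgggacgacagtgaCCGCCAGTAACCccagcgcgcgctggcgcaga
Srebf1 downstream match: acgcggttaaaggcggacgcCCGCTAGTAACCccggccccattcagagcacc
Fasn: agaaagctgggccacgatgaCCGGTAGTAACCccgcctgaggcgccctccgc
The Abca1 stretch lies at chr4:53159928-53159979, with the match 64 bases before the start site. The Srebf1 stretches lie at chr11:60210619-60210670 and chr11:60210568-60210619, with matches 179 and 128 bases before one of its start sites. The Fasn stretch lies at chr11:120824738-120824789, with the match 222 bases before the start site, and all 4 are on the minus strand. The window of Mylip did not hold these letters, and no window of Abcg1, Scd1 or Stard4 was in the table.

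**Figure D2:**
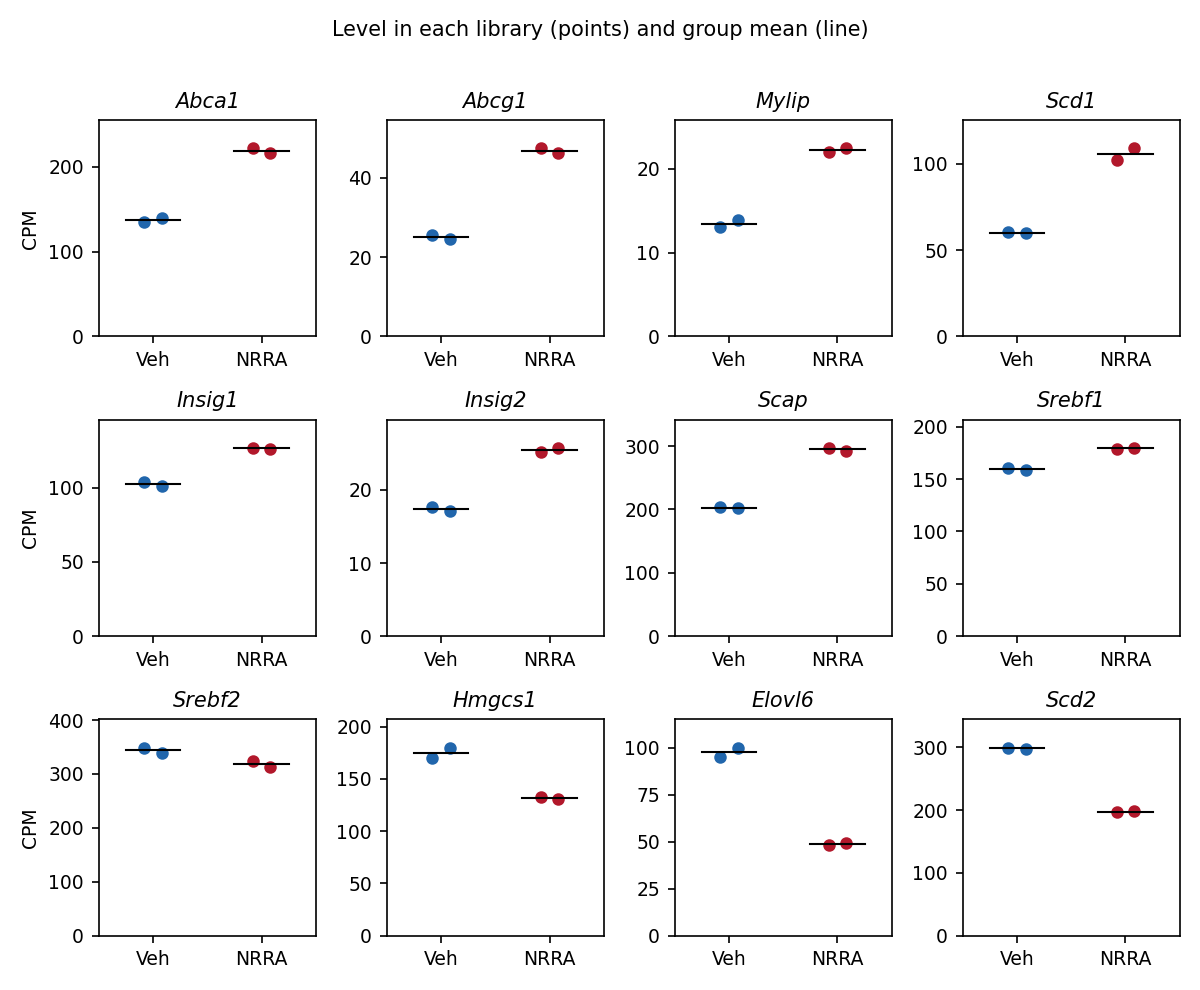
CPM (y axis, from 0 in each panel) of 12 of the genes in the 2 Veh libraries (blue) and the 2 NRRA libraries (red); each point is a library and the line is the mean of its group. In every panel both NRRA points lie on one side of both Veh points, above in Abca1, Abcg1, Mylip, Scd1, Insig1, Insig2, Scap and Srebf1 and below in Srebf2, Hmgcs1, Elovl6 and Scd2.

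The 6 fatty acid synthesis genes were all called, in different directions. Acly, which makes cytosolic acetyl-CoA from citrate, had 362 and 349 CPM in Veh and 409.7 and 417 CPM in NRRA (0.22 ± 0.026, adjusted p 8.28e-08). Acaca, which carboxylates acetyl-CoA to malonyl-CoA, had 243 and 239.8 CPM against 308 and 315 CPM (0.37 ± 0.028, adjusted p 1.04e-11), although 64.3% of its longest transcript is near identical to a pseudogene. Fasn, the fatty acid synthase, had 920.2 and 922 CPM against 729 and 752 CPM (-0.32 ± 0.023, adjusted p 4.51e-12). Elovl6, which lengthens palmitate to stearate, had 95.1 and 100.2 CPM against 48.5 and 49.3 CPM (-0.999 ± 0.045, adjusted p 3.49e-16), the largest change among the 36 genes, and 15.2% of its longest transcript is near identical to other sequences.

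Transcripts of the stearoyl-CoA desaturases, which place the double bond of oleate, moved in opposite directions. Scd1 had 60.2 and 60.0 CPM in Veh and 102 and 109 CPM in NRRA, a rise of 0.81 ± 0.043 or 1.76-fold (adjusted p 9.97e-15). Scd2 had 299.5 and 297 CPM in Veh and 197 and 198 CPM in NRRA (-0.59 ± 0.028, adjusted p 7.44e-16). Per kb of exonic length Scd2 was the more abundant of the pair in every library (54.8 and 54.4 CPM in Veh, 36.1 and 36.2 in NRRA, against 12.3 in both Veh libraries and 20.95 and 22.3 in NRRA for Scd1), and the count ratio of Scd1 to Scd2 went from 0.201 and 0.202 to 0.520 and 0.551. The genes lie on opposite strands of chromosome 19, and 11.4% of the longest Scd2 transcript is near identical to Scd1, so that some reads may be placed with the wrong gene. The ratio within each library does not depend on scaling.

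**Figure D3:**
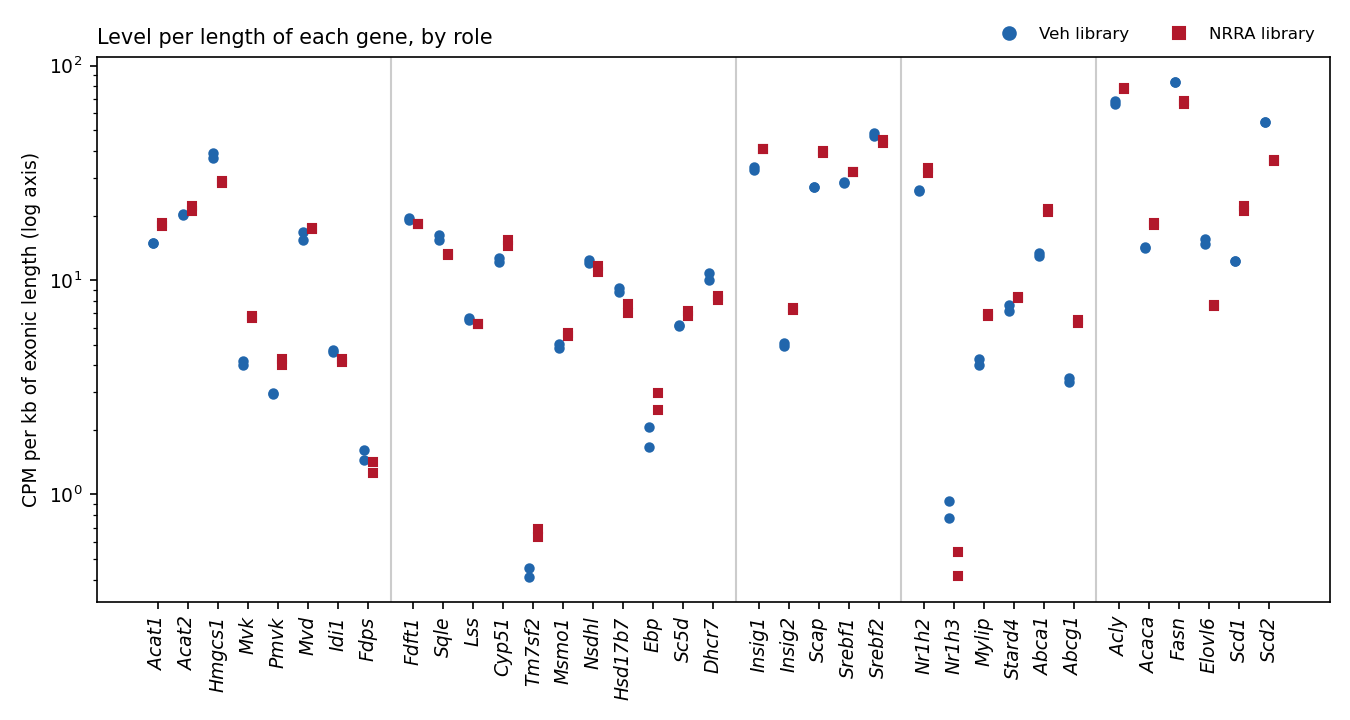
Level of each of the 36 genes in each library, as CPM per kb of exonic length on a logarithmic y axis (blue circles, 2 Veh libraries; red squares, 2 NRRA libraries), with genes on the x axis in order of role and grey lines between roles. Fasn and Acly are highest, and Tm7sf2 and Nr1h3 are the lowest in both groups.

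Levels of all 36 genes were set in order as CPM per kb of exonic length. This length joins the exons of all annotated transcripts, so the order between genes depends on the annotation. For Dhcr7 it was 5817 bases against 2815 in the longest transcript, but for Scd2 5464 against 5455. In Veh, Fasn was highest at 84.1 ± 0.097 (SD, n = 2), followed by Acly at 67.4 ± 1.7 and Scd2 at 54.6 ± 0.29. In NRRA, Acly was first at 78.3 ± 0.98 and Fasn was next at 67.6 ± 1.5, a change of order larger than the spread of either gene. Scd2 went from rank 3 to rank 6, Elovl6 from rank 14 to rank 22, and Scd1 from rank 19 to rank 10. Srebf2 ranked 4 in Veh at 47.9 ± 0.98 and 3 in NRRA at 44.3 ± 1.1, above Srebf1 at 28.4 ± 0.23 and 31.8 ± 0.094. Among the cholesterol enzymes Hmgcs1 was highest in both groups, at 38.1 ± 1.5 in Veh and 28.7 ± 0.42 in NRRA. The lowest were Tm7sf2, at 0.432 ± 0.028 and 0.662 ± 0.040, and Nr1h3, at 0.856 ± 0.11 and 0.478 ± 0.089, and these 2 genes changed places between the groups. Neighbours in the order were often closer than their spread, as were Mylip (4.16 ± 0.19) and Mvk (4.09 ± 0.11) in Veh.

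**Figure D4:**
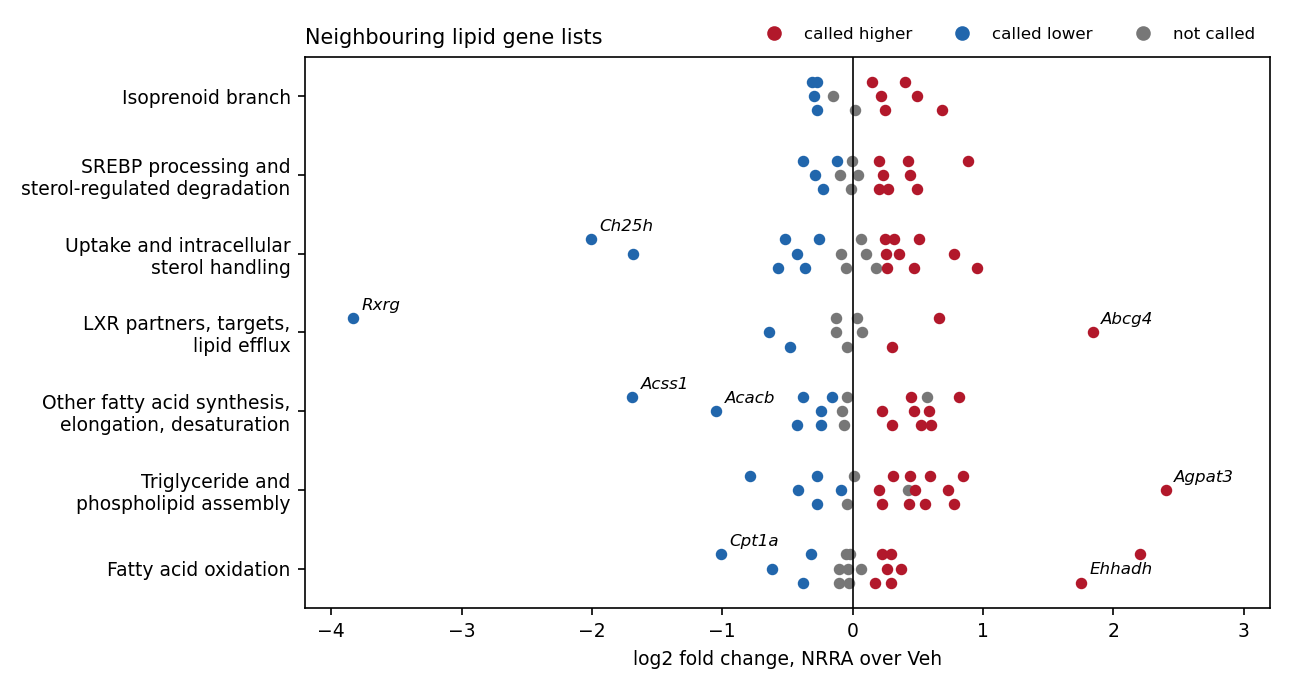
Log2 fold change, NRRA over Veh (x axis), of genes in 7 neighbouring lipid gene lists (y axis), 1 point per gene tested; red, called higher, blue, called lower, grey, not past the threshold in edgeR. Points lie on both sides of 0 in every list, and those farthest from 0 among the named genes are Rxrg (-3.83), Agpat3 (2.40) and Ch25h (-2.01).

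Genes next to the 36 in the pathway were read from the same fit, where 27.9% of all genes tested were higher and 28.4% lower. The share of higher genes ran from 27.3% for the partners and other targets of LXR to 60% for triglyceride and phospholipid assembly, and that of lower genes from 21.1% for fatty acid oxidation to 36.8% for other fatty acid synthesis. Of 12 genes of the isoprenoid branch, which uses farnesyl pyrophosphate for prenyl tails, 6 rose and 4 fell (median 0.082). Pdss1 (0.68), which starts the tail of coenzyme Q, rose, while Ggps1 (-0.30), the geranylgeranyl pyrophosphate synthase, and Nus1 (-0.31), a dolichol synthesis subunit, fell most. Of 16 genes that process SREBP or degrade sterol-regulated proteins, 8 rose and 4 fell (median 0.12). Sec24a (0.49), a coat protein of the vesicles that carry SCAP, was among those that rose. Vcp (-0.38) and Faf2 (-0.29), which draw proteins out of the membrane for the proteasome, fell. The count of 4 became 2 in DESeq2 and with library size only.

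Of 21 genes of lipoprotein uptake and sterol handling 9 rose and 7 fell (median 0.100). Ch25h, which makes 25-hydroxycholesterol, a ligand of LXR and of INSIG, had 24.4 and 25.7 CPM in Veh and 6.54 and 5.88 CPM in NRRA, a fall to 0.248 of the Veh level (-2.01 ± 0.097, adjusted p 1.43e-15). Cyp7b1 (0.95), which breaks down oxysterols, and Gramd1c (0.77), a sterol transfer protein, rose most, and Tspo (-0.58), an outer mitochondrial membrane protein, was among those that fell. Of 11 partners and other targets of LXR 3 rose and 3 fell (27.3% each, near the shares over all genes, median -0.041). Rxrg, which encodes RXR gamma, went from 219 and 248 counts to 29 and 7 (-3.83 ± 0.26, adjusted p 1.26e-12), a change of -5.11 without NRRA library 1 and -3.20 without NRRA library 2. Abca7 (-0.65), a phospholipid transporter, also fell, while Abcg4 (1.84, from 23 and 19 to 86 and 81 counts) and Abca2 (0.66), both sterol or lipid transporters, rose. Named after their values were seen, the RXR genes Rxra (-0.48) and Rxrb (0.30) were called in opposite directions, and the remaining 5 genes of the list did not pass the test.

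Of 19 other tested genes of fatty acid synthesis 8 rose and 7 fell (median -0.045). Mlxipl (0.81), which encodes the glucose-responsive factor ChREBP, and Elovl4 (0.60), an elongase of very long chains, rose most, whereas Acss1 (-1.69), a mitochondrial acetyl-CoA synthetase, and Acacb (-1.05), the carboxylase that restrains fatty acid oxidation, fell most. Of 20 genes of triglyceride and phospholipid assembly 12 rose and 5 fell (median 0.37, the highest of the 7 lists). The 5 became 3 without Veh library 2, without NRRA library 1, in DESeq2, with library size only and with no filter. Agpat3, a lysophospholipid acyltransferase, had 28.7 and 27.8 CPM in Veh and 151 and 147.6 CPM in NRRA (2.40 ± 0.045, adjusted p 2.25e-24). Dgat2 (0.85), the last step of triglyceride synthesis, also rose, and the lipid droplet coat gene Plin2 (-0.79) and the acyl-CoA synthetase gene Acsl5 (-0.42) fell. Of 19 tested genes of fatty acid oxidation 8 rose and 4 fell (median -0.020). Ehhadh (1.75), a peroxisomal enzyme, rose, while Cpt1a (-1.01), the gate of mitochondrial oxidation, and Hadha (-0.62), of the mitochondrial trifunctional protein, fell.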

How the data were processed

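Poly(A) RNA of 2 Veh and 2 NRRA libraries was sequenced with paired ends. The authors deposited whole-number read counts per gene. Per the labels, bcl2fastq, STAR 2.6.1c, featureCounts 1.6.4 and the mm10 build were used; the annotation release and strand setting are not given in the sources used here, and the labels and the study's methods name different library kits. Of the gene identifiers 99.67% are in GENCODE release 21 for mouse, from which lengths and overlaps were taken.

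Counts were fitted in edgeR 4.0.16 (R 4.3.3) with filterByExpr, TMM factors (0.969 to 1.03) and the robust quasi-likelihood test. Benjamini-Hochberg adjustment covered the 20232 genes tested, and an adjusted p under 0.05 was a call. Fold changes are NRRA over Veh on the log2 scale. CPM are counts scaled to a common TMM-adjusted library size, and mean log2 CPM used a prior count of 2. The script was tested on simulated data. Near identity means at least 95% over at least 100 bases (BLAST 2.17.0), with members over 5% of a transcript or of exonic bases named. Alternatives were edgeR with DESeq2 size factors or with library size only, DESeq2 1.42.0, no filter, a stricter filter (10 counts in both libraries of a group), no robust estimation, a replicate block, and leaving out each library.

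The 36 genes and the gene lists were chosen with earlier results of these data known. All 36 are named, and from each further list up to 2 genes with the highest and 2 with the lowest log2 fold change among called genes whose log2 CPM averaged 0 or more. A few genes that this rule selects are not reported here. Libraries are numbered as in the sample titles. The count table numbers the Veh libraries 1 higher, so the replicate block and the same-number check rest on the title numbers. Within groups, counts differed by more than sampling noise (chi-square per degree of freedom 2.45 in Veh and 1.99 in NRRA), so no library was taken as a duplicate.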

Additional observations from a re-analysis of the deposited data

How the results depend on the processing

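Over 396 recomputed fold changes of the 36 genes, 373 neither changed sign nor crossed the threshold. The 2 that changed sign were Fdft1 (0.0069) and Lss (0.016), neither past the threshold, with library size only. Of the others 19 were no longer called and 2, Acat2 and Mvd with library size only, became called. DESeq2 accounted for 7 of the lost calls (Pmvk, Tm7sf2, Msmo1, Ebp, Sc5d, Nr1h3 and Stard4), library size only for that of Srebf2, and leaving out a library for the other 11. Counts of the 36 genes called higher ranged from 14 (DESeq2) to 22 (library size only) and those called lower from 8 to 9. DESeq2 called 4252 genes higher and 4314 lower over the whole table. With library size only the median of all genes was 0.090 higher, and the role medians were 0.19 for the mevalonate arm, 0.016 for the sterol arm (against -0.074), 0.39 for sensing and SREBP, 0.58 for LXR and transport and 0.041 for fatty acid synthesis (against -0.049). Without single libraries the sterol arm median ranged from -0.072 to -0.059, that of the mevalonate arm (0.100) from 0.066 without Veh library 2 to 0.13 without Veh library 1, and that of fatty acid synthesis (-0.049) from -0.067 without NRRA library 2 to -0.027 without NRRA library 1. The cause of these shifts beyond the common scaling was not tested.

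A replicate block gave 20 higher and 9 lower of the 36 genes, 5772 and 5836 of all genes, and changed no call of the 36. Same-numbered libraries did not deviate together (Pearson r -0.011 over genes), so they share only a number. With 2 libraries per group the spread is estimated mostly from all genes together, and leaving out a library assumes that the lone one varies like the other group. Tm7sf2 and Nr1h3, with the fewest counts, had the largest standard errors of the 36 genes.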
